A study of Rattus norvegicus with 6 samples.

Results

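Aminoacyl-tRNA synthetases are the enzymes that join each amino acid to its tRNA, and their transcripts were followed in rat kidney epithelial cells exposed to streptozotocin (STZ), a glucose-linked alkylating drug. The members were taken by gene symbol, as 20 cytosolic and 16 mitochondrial enzymes, 36 in all. Of these, 35 were read among the 18930 genes of the counts table, 20 cytosolic and 15 mitochondrial, and Tars2 was not analysed here. NRK-52E is an established wild-type rat kidney line, and mRNA was sequenced from 3 vehicle-treated samples (Control) and from 3 samples held for 24 h in STZ at 10 mM. All 6 samples are of the same line, and no source used here states whether the replicates were separate cultures, so p-values measure the spread between these samples only.

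Cytosolic synthetases charge the tRNAs used by ribosomes outside mitochondria, and several of them sit together in a multi-synthetase complex held by the scaffold proteins Aimp1, Aimp2 and Eef1e1. Mitochondria use a separate set of enzymes, encoded in the nucleus and imported, to charge the tRNAs of their own genome. A single gene, Gars or Kars, serves both compartments for glycine and lysine. When charged tRNA runs short, the kinase Gcn2 (Eif2ak4) phosphorylates eIF2alpha and the transcription factor ATF4 is made. ATF4 is known to act on many cytosolic synthetase genes through a composite element shared with C/EBP proteins.

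That element is shown first, because among the members its letters were found only in cytosolic windows, though not in most of them. The letters TGATGNAA were searched on both strands of the window from 250 bases before to 50 bases after each RefSeq gene start (GRCr8), in which 32 of the 36 members had an entry. They were present in 7 of 17 cytosolic windows (41.2%) and in 0 of 15 mitochondrial windows. Among all protein-coding genes, 731 of 21842 windows of the same length held them (3.35%). Such a match describes the letters and is not evidence of a bound site. Sites are printed in the direction of transcription, each within 30 bases or up to the end of the window, with the matched letters in capitals.
Aars1, 9 bases after the start, chr19:55908480-55908509, plus strand: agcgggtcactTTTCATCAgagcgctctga
Cars (RefSeq Cars1), 17 bases after the start, chr1:208225334-208225363, minus strand: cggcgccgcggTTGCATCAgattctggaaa
Iars1, 24 bases before the start, chr17:15193658-15193687, minus strand: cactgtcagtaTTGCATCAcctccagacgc
Mars1, 17 bases before the start, chr7:65023752-65023781, minus strand: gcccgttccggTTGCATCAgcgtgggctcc
Nars1, 14 bases before the start, chr18:60275778-60275807, minus strand: cctaggtgatcTGATGCAAcgcttcagtca
Tars1, 27 bases before the start, chr2:62114811-62114840, minus strand: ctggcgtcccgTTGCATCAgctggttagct
Yars1, 38 bases after the start, chr5:146820190-146820212, plus strand: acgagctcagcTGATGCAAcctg

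Total counts were between 10430924 and 15191349 per sample. After edgeR's filter, 11870 genes were tested, all 35 members among them. Normalized counts are counts divided by the TMM-scaled library size and multiplied by its mean over samples. The labelled epithelial type was checked on its markers. Krt8, an epithelial keratin, had 14297 ± 506 normalized counts in Control and 19971 ± 100.2 in STZ (SD, n = 3), a log2 fold change of 0.48 (adjusted p = 1.8e-15). Cdh1, the other epithelial marker tested, had 16 to 35 reads per sample and fell by 0.69 on the log2 scale (adjusted p = 0.030), so the epithelial markers tested moved apart. Krt18 never exceeded 3 reads. Only uniquely mapped reads were counted, so a count near the floor need not mean an unexpressed gene, and its cause was not tested. Of the 6 proximal tubule markers in the table, Slc2a2, Lrp2, Slc5a2, Slc34a1 and Cubn never exceeded 10 reads. Aqp1, a water channel and the only marker of that list tested, had 113 to 167 reads in Control and 66 to 81 in STZ, and fell by 1.25 on the log2 scale (adjusted p = 9.4e-09). Endothelial and immune markers summed to at most 1.12 and 2.66 CPM (counts scaled to library size). Of the mesenchymal markers, Vim was abundant in both groups, with means of 24906 normalized counts in Control and 22929 in STZ. Col3a1, Acta2, Col1a1 and Pdgfrb had Control means of 671, 656, 377 and 244, and Col1a2 never exceeded 2 reads. With STZ, 5 of 5 mesenchymal markers tested were lower, beside 25.1% of all genes tested. Their part in the results was not tested. In bulk RNA, fewer cells of a type and less RNA per cell cannot be told apart.

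Some cytosolic synthetases were higher with STZ and some lower, and a part of the mitochondrial ones was lower. Of 20 cytosolic enzymes, 6 rose and 8 fell after STZ. The threshold was an adjusted p of 0.05 in the quasi-likelihood test of edgeR, corrected by Benjamini-Hochberg across the 11870 genes. Of 15 mitochondrial enzymes, 0 were higher and 7 lower by the same test. Mitochondrial enzymes had fewer reads, in sum 475 CPM beside 3285 for cytosolic ones in Control, so equal changes pass less readily. Mars2, at a log2 fold change of 0.12 with a standard error of 0.09 and 177 to 317 reads, did not pass. Hars1, also at 0.12 but with a standard error of 0.04 and 1262 to 2014 reads, did. At this threshold 25.9% of all genes tested were higher and 25.1% lower, or 50.9% in either direction, so 21 of 35 members is a share not far above the background. The 6 of 20 cytosolic enzymes higher are likewise near the 25.9% of all genes. When libraries were scaled by size only, 3 cytosolic enzymes were higher and 11 lower, and 9 mitochondrial enzymes were lower. No member also had an absolute log2 fold change over 1, the additional threshold of the study, which 3.37% of genes passed. The median log2 fold change was -0.08 for cytosolic and -0.23 for mitochondrial enzymes, beside -0.01 over all genes tested. Without Control replicate 3, the cytosolic median was -0.05.

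**Figure D1:**
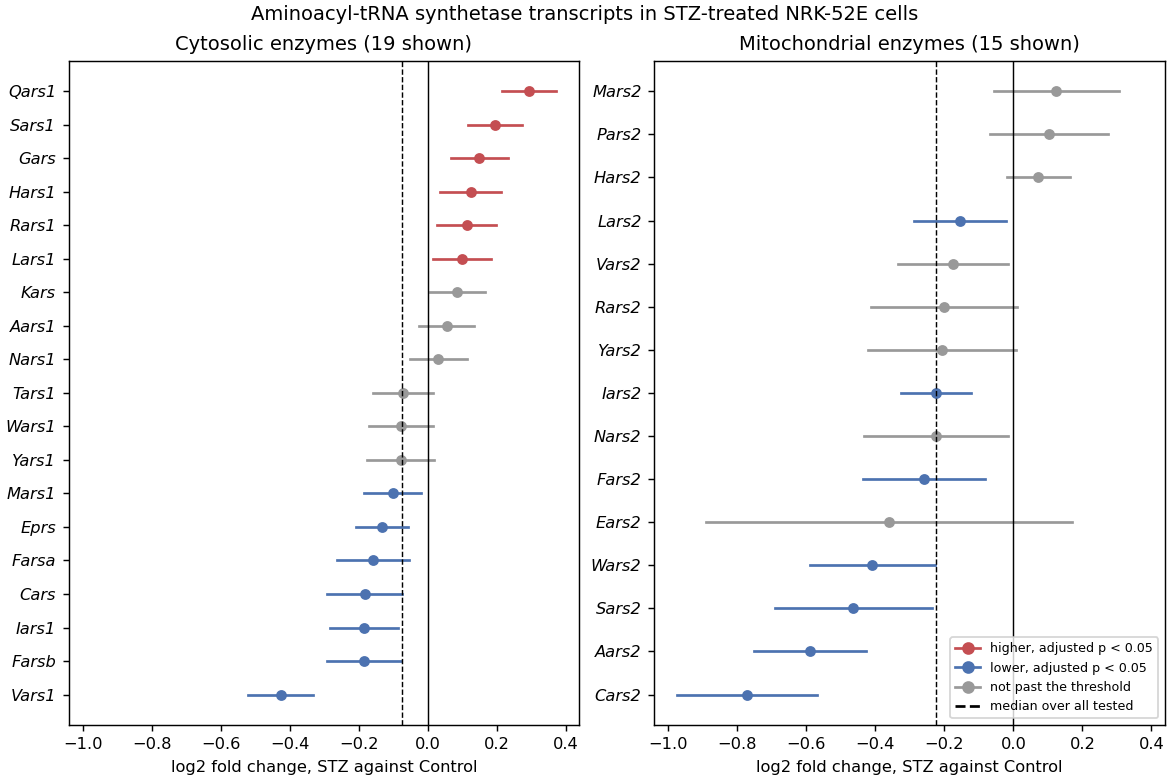
Log2 fold change of each synthetase transcript, STZ against Control, with its 95% confidence interval (points and bars), in the cytosolic and mitochondrial enzymes reported. Red and blue mark enzymes higher or lower at an adjusted p-value under 0.05, grey the others, and dashed lines the medians over all enzymes tested, -0.08 and -0.23. Red points appear only in the cytosolic panel, between 0.10 and 0.29, and the lowest point is Cars2 at -0.77.

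The glutamine enzyme Qars1 had the largest rise among members. Its normalized counts were 2769, 2762 and 2721 in Control and 3350, 3449 and 3314 in STZ. Every STZ sample lay above every Control sample, and transcripts rose by 22.5%, or 0.29 on the log2 scale with a standard error of 0.04 (adjusted p = 2.2e-08). Qars1 is a subunit of the multi-synthetase complex and has no separate mitochondrial counterpart, since mitochondria make glutaminyl-tRNA from glutamyl-tRNA with an amidotransferase. The genes of that amidotransferase, Gatb, Gatc and Qrsl1, had log2 fold changes of 0.08, 0.02 and -0.08, and none passed the test.

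The serine enzyme Sars1 had 2801, 2769 and 2727 normalized counts in Control and 3126, 3107 and 3249 in STZ. The groups did not overlap, and the log2 fold change was 0.19 ± 0.04 (SE, adjusted p = 5.4e-05). Sars1 also charges the selenocysteine tRNA with serine, the first step of selenocysteine synthesis. Of the following steps, Sepsecs, which completes the conversion to selenocysteine, fell by 0.29 on the log2 scale (adjusted p = 0.0096). Pstk, which phosphorylates the attached serine, and Sephs2, which makes the selenium donor, did not pass the test at -0.14 and -0.05 (adjusted p = 0.32 and 0.59), Sephs2 being named after its values were seen. Sephs1, a paralog of Sephs2 that is not known to make this donor, fell by 0.52 (adjusted p = 8.3e-10).

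The glycine enzyme Gars, which acts in both compartments, had 2152, 2130 and 2221 normalized counts in Control and 2474, 2323 and 2408 in STZ. All STZ samples were higher, with a log2 fold change of 0.15 ± 0.04 (SE, adjusted p = 0.0024). The lysine enzyme Kars, likewise shared, had 2742, 2740 and 2619 in Control and 2878, 2810 and 2893 in STZ. Its groups did not overlap either, but its log2 fold change of 0.08 did not pass the test (adjusted p = 0.071). Leaving out Gars and Kars left the cytosolic median at -0.08.

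Hars1, Rars1 and Lars1, for histidine, arginine and leucine, rose less. Hars1 had 1481, 1486 and 1538 normalized counts in Control and 1658, 1575 and 1673 in STZ, a log2 fold change of 0.12 (adjusted p = 0.018). Rars1 had 1868, 1828 and 1827 in Control and 1990, 1929 and 2043 in STZ, a log2 fold change of 0.11 (adjusted p = 0.024). Lars1 had 2183, 2185 and 2214 in Control and 2262, 2327 and 2452 in STZ, a log2 fold change of 0.10 (adjusted p = 0.046). In each of these genes all STZ samples were higher. These calls were not firm. With library size only the adjusted p-values were 0.084, 0.12 and 0.19, and without STZ replicate 3 they were 0.075, 0.11 and 0.25. Without Control replicate 2 they were 0.060, 0.067 and 0.10. The Hars1 call was also lost without Control replicate 1 or STZ replicate 1 (adjusted p = 0.059 and 0.058). That of Rars1 was lost without Control replicate 3 or STZ replicate 1 (adjusted p = 0.052 and 0.053), and that of Lars1 without Control replicate 1 or STZ replicate 2 (adjusted p = 0.095 and 0.064).

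Among cytosolic enzymes the valine enzyme Vars1, which binds elongation factor eEF1, had the largest fall. Its normalized counts were 1762, 1902 and 2035 in Control and 1382, 1442 and 1425 in STZ. The lowest Control sample was above the highest STZ sample. Vars1 transcripts fell by 25.6%, or -0.43 on the log2 scale with a standard error of 0.05 (adjusted p = 3.1e-10). Of its partner's genes tested here, Eef1b2 was also lower at -0.12 (adjusted p = 0.0054), whereas Eef1g was at 0.01 and did not pass the test. The translocation factor Eef2 was lower at -0.20 (adjusted p = 4.5e-06). Eef1a1 was listed with at most 1 read in any sample and was not tested, so its expression cannot be judged from these counts.

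Farsa and Farsb encode the alpha and beta subunits of the cytosolic phenylalanine enzyme, and both were lower, at -0.16 and -0.19 (adjusted p = 0.0090 and 0.0034). The ratio of Farsa to Farsb reads was 1.11, 1.14 and 1.10 in Control and 1.10, 1.18 and 1.14 in STZ, so the groups overlapped in subunit balance. Iars1, Cars, Eprs and Mars1 were lower at -0.18, -0.18, -0.13 and -0.10 (adjusted p = 0.0016, 0.0042, 0.0025 and 0.035). Eprs is a fusion of the glutamate and proline enzymes. The Farsa call was lost without STZ replicate 1 (adjusted p = 0.065). That of Mars1 was lost when any sample was left out, with adjusted p-values from 0.058 without Control replicate 2 to 0.10 without STZ replicate 2. In GRCr8 the span of Mars1 overlaps that of Ddit3. Whether counting used strand is not given in the sources used here, so reads of this pair may not be fully separated. The same limit holds for Sars2 with Ccer2, Aars1 with Ddx19b, Yars1 with S100pbp, Rars2 with Orc3 and Slc35a1, and Mars2 with Boll.

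Aars1, Nars1, Tars1, Wars1 and Yars1 were the other cytosolic enzymes and did not pass the test, at 0.05, 0.03, -0.07, -0.08 and -0.08. Wars1, for tryptophan, is a known interferon target. It had 1331, 1333 and 1385 normalized counts in Control and 1305, 1265 and 1267 in STZ, so all STZ samples were slightly lower. The 95% confidence interval of its log2 fold change was -0.17 to 0.01. By contrast, 4 of 5 other interferon target genes tested were higher, beside 25.9% of all genes tested. Among them were Irf7, Gbp2 and Irf1 at 1.39, 0.65 and 0.43 (adjusted p = 2e-20, 1.2e-08 and 4.5e-08). Yars1 passed without Control replicate 1 (adjusted p = 0.036), and Tars1, Wars1 and Yars1 passed as lower with library size only (adjusted p = 0.035, 0.036 and 0.043).

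**Figure D2:**
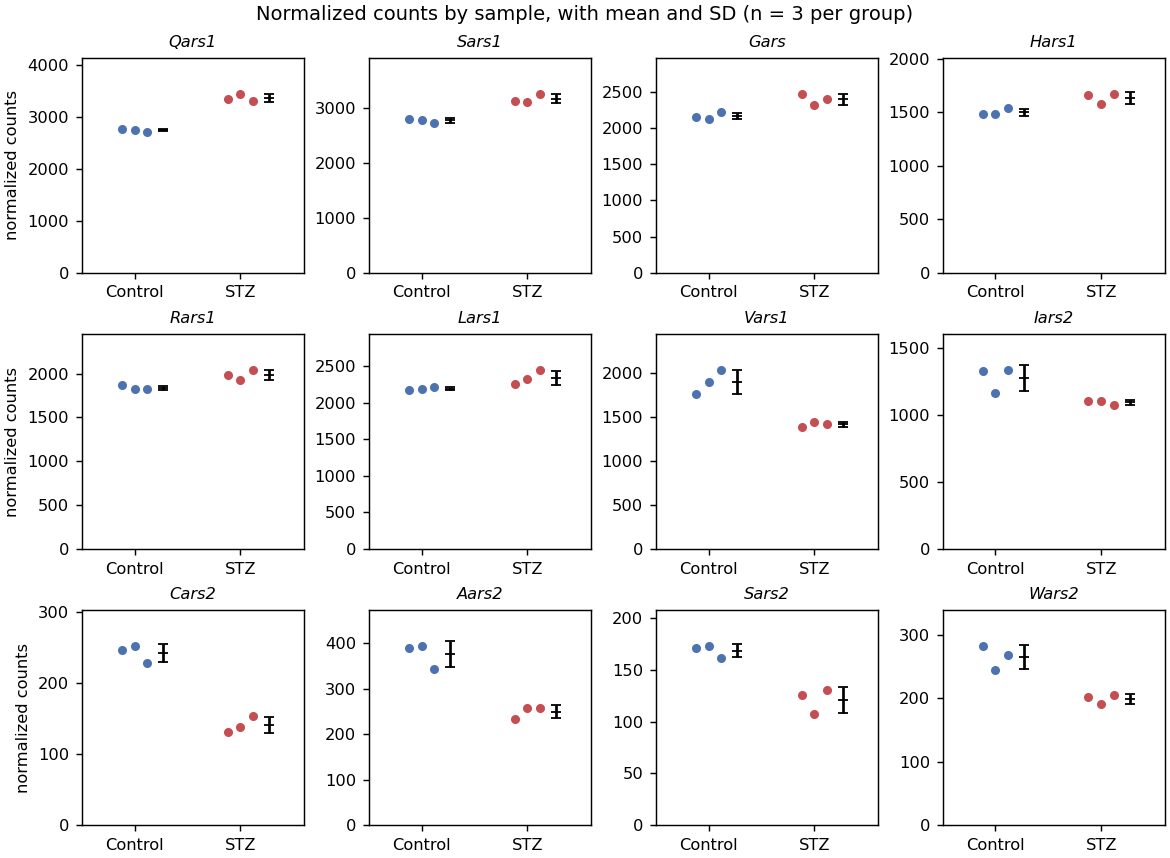
Normalized counts of 12 synthetase transcripts in each sample (points), with the group mean and SD (bars, n = 3), on axes starting at 0. Qars1, Sars1, Gars, Hars1, Rars1 and Lars1 are higher in all STZ samples, Vars1, Iars2, Cars2, Aars2, Sars2 and Wars2 lower, and Cars2 has 228 to 252 in Control and 131 to 154 in STZ.

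The largest changes of all members were falls of mitochondrial enzymes. Cars2, for cysteine, had 246, 252 and 228 normalized counts in Control and 131, 138 and 154 in STZ. The ranges were far apart. Cars2 transcripts fell by 41.5%, or -0.77 on the log2 scale with a standard error of 0.10 (adjusted p = 1.6e-08). Aars2, for alanine, had 390, 394 and 343 in Control and 233, 257 and 257 in STZ. It fell by 0.59 ± 0.08 on the log2 scale (SE, adjusted p = 5.3e-08), and the groups were again separate.

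Sars2, which charges mitochondrial serine tRNAs, had 171, 173 and 161 normalized counts in Control and 126, 107 and 130 in STZ, a log2 fold change of -0.46 ± 0.11 (SE, adjusted p = 6.3e-04). Wars2, for tryptophan, had 283, 246 and 268 in Control and 203, 190 and 205 in STZ, a log2 fold change of -0.41 ± 0.09 (SE, adjusted p = 1.8e-04). In both genes every STZ sample was lower than every Control sample. Fars2, for phenylalanine, had 249, 263 and 251 in Control and 209, 222 and 208 in STZ, a log2 fold change of -0.26 ± 0.09 (SE, adjusted p = 0.012). DESeq2's Wald test gave Fars2 an adjusted p of 0.055.

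Iars2, for isoleucine, had 1326, 1166 and 1337 normalized counts in Control and 1103, 1104 and 1073 in STZ, a log2 fold change of -0.23 ± 0.05 (SE, adjusted p = 2.3e-04). Lars2, for leucine, was just past the threshold at -0.15 (adjusted p = 0.047). Its call was lost without Control replicate 1 or 3 (adjusted p = 0.14 and 0.11) and without STZ replicate 1 or 2 (adjusted p = 0.19 and 0.072). Vars2, Rars2, Yars2, Nars2 and Ears2 had log2 fold changes from -0.36 to -0.18 and did not pass the test. Rars2 passed without Control replicate 1 or STZ replicate 3 (adjusted p = 0.020 and 0.042), and Nars2 without Control replicate 2 (adjusted p = 0.044). Ears2, for glutamate, had only 13 to 32 reads per sample, and the 95% confidence interval of its log2 fold change, -0.89 to 0.17, included 0.

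The 3 mitochondrial enzymes with a positive log2 fold change were Mars2, Pars2 and Hars2, at 0.12, 0.10 and 0.07, and none passed the test. Mars2, for methionine, had 208, 252 and 269 normalized counts in Control and 270, 266 and 263 in STZ, which overlapped narrowly. Hars2 lies next to Hars1 on the opposite strand, with 143 bases between their RefSeq starts in GRCr8 and 243 bases shared by their promoter windows. Hars2 had 1312, 1345 and 1339 normalized counts in Control and 1448, 1346 and 1404 in STZ. The STZ samples lay above the Control samples by a narrow margin, and the fold change missed the threshold (adjusted p = 0.19). The ratio of Hars1 to Hars2 reads was 1.13, 1.11 and 1.15 in Control and 1.15, 1.17 and 1.19 in STZ, with overlap between the groups.

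Reads of the cytosolic and mitochondrial enzyme for the same amino acid were then set against each other within each sample, which removes library scaling. Gene length enters such a ratio, so only its change between groups is described. Of 16 comparisons, 7 ratios were higher in all STZ samples, 2 were lower in all STZ samples and 7 overlapped. Over all genes tested, normalized counts of 56.3% did not overlap between groups, 28.6% being higher and 27.7% lower. Those are shares of single genes and not of ratios. Taken in both directions, the ratios did not separate more often than single genes did. An exact permutation test of 3 against 3 samples cannot go below a two-sided p of 0.1, so single ratios were not tested. Eprs and Fars2 each enter a pair of comparisons, which therefore share reads.

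The serine pair differed most. The ratio of Sars1 to Sars2 reads was 16.3, 16.0 and 16.9 in Control and 24.9, 29.0 and 24.9 in STZ, a mean log2 ratio of 4.04 ± 0.04 in Control and 4.71 ± 0.13 in STZ (SD, n = 3). Both genes contributed, Sars1 being higher and Sars2 lower. The ratio of Aars1 to Aars2 was 7.82, 7.98 and 9.63 in Control and 13.7, 12.8 and 13.2 in STZ. Here the cytosolic enzyme, with 3045, 3143 and 3300 normalized counts in Control and 3184, 3293 and 3379 in STZ, did not pass the test. The ratio of Cars to Cars2 was 3.32, 3.65 and 3.90 in Control and 5.78, 5.60 and 5.11 in STZ. Both cysteine enzymes were lower, Cars with 819, 922 and 890 normalized counts in Control and 758, 775 and 786 in STZ.

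The ratio of Wars1 to Wars2 was 4.71, 5.43 and 5.17 in Control and 6.44, 6.65 and 6.17 in STZ. The asparagine, leucine and tyrosine pairs were also separate in this direction, with mean log2 ratios higher by 0.26, 0.25 and 0.13. The arginine pair differed by 0.31 but overlapped, as Rars2 had 174, 211 and 225 normalized counts in Control and 162, 171 and 198 in STZ. In the opposite direction were valine, methionine and proline. The ratio of Eprs to Pars2 for proline had a mean log2 difference of -0.24, but the groups overlapped. The ratio of Vars1 to Vars2 was 5.78, 6.20 and 6.59 in Control and 4.98, 5.35 and 5.31 in STZ. That of Mars1 to Mars2 was 9.78, 8.02 and 7.58 in Control and 7.09, 7.01 and 7.21 in STZ. The isoleucine pair stood at 0.910, 1.12 and 0.927 in Control and 0.947, 1.04 and 1.03 in STZ, with both enzymes lower and the groups overlapping.

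**Figure D3:**
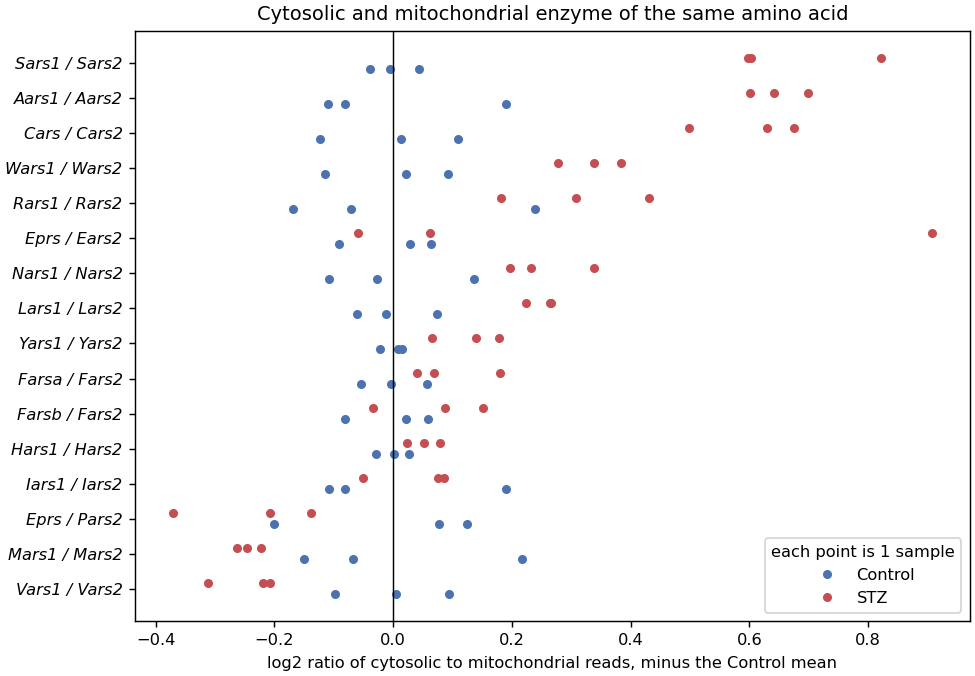
Log2 ratio of cytosolic to mitochondrial reads for the same amino acid in each sample, minus the Control mean of that ratio, with 1 row for each of the 16 comparisons (blue Control, red STZ). The STZ points of serine, alanine and cysteine lie to the right of all their Control points, those of valine and methionine to the left, and 7 comparisons overlap.

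Summed over members, cytosolic enzymes had 3252, 3282 and 3320 CPM in Control and 3188, 3195 and 3263 in STZ, which overlapped. Mitochondrial enzymes had 481, 464 and 481 CPM in Control and 415, 411 and 419 in STZ, which did not overlap. The ratio of both sums rose from 6.91 ± 0.15 in Control to 7.75 ± 0.06 in STZ (SD, n = 3), with every STZ sample above every Control sample. Because it is a score over chosen members, no p-value is given. Genes with more reads weigh more in such sums. In Control replicate 1, Iars2 and Hars2 held 1130 and 1118 of the 5013 mitochondrial reads. The cytosolic sum includes Gars and Kars, which act in both compartments.

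Members of each structural class, and of the multi-synthetase complex, moved in both directions in the cytosolic set. Class I and class II synthetases differ in the fold of their catalytic domain. Over all genes tested, 25.9% were higher and 25.1% lower, and each count of this paragraph is to be read beside these shares. Of 9 cytosolic class I enzymes 3 were higher and 4 lower, and of 10 class II enzymes 3 were higher and 3 lower. In mitochondria 4 of 9 class I and 3 of 6 class II enzymes were lower. Of the 8 enzymes of the multi-synthetase complex, 3 were higher (Qars1, Rars1 and Lars1), 4 were lower (Iars1, Eprs and Mars1 among them) and Kars did not pass. Of the 12 cytosolic enzymes outside it, 3 were higher and 4 lower. The scaffold genes Aimp1, Aimp2 and Eef1e1 had log2 fold changes of 0.03, -0.08 and -0.12, and none passed the test.

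The cytosolic genes with the ATF4-C/EBP letters shown above, Aars1, Cars, Iars1, Mars1, Nars1, Tars1 and Yars1, included 0 that were higher and 3 that were lower, with a median log2 fold change of -0.08. The 10 cytosolic genes whose windows lacked these letters included 4 higher and 4 lower, with a median of 0.00. Shares over all genes tested were 25.9% higher and 25.1% lower. Gars, Rars1 and Mars2 had no promoter entry. The test of a difference between these sets was not made, and the letters were searched with earlier results of these data known.

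Atf4 itself, chosen after its values were seen, had 3061, 2962 and 3211 normalized counts in Control and 2964, 3124 and 3094 in STZ, and its log2 fold change of -0.01 did not pass the test. Of the 17 genes tested in the list of ATF4 and its targets outside the synthetases, 7 were higher and 6 lower. The shares over all genes tested were 25.9% and 25.1%. The lower genes with the smallest p were Psat1, Phgdh and Shmt2, enzymes of serine and glycine synthesis, at -0.94, -0.66 and -0.58 (adjusted p = 1.8e-20, 1.9e-15 and 1.8e-14). Among the higher genes, chosen after their values were seen, were the stress regulators Atf3, Ddit3 and Trib3 and the glutathione-degrading enzyme Chac1, at 1.71, 0.84, 0.39 and 0.97. Asns, the asparagine synthetase, likewise chosen after its values were seen, was at -0.04 and did not pass. Of 16 windows of this list, 3 held the same letters, and Chac1 and Trib3, which were tested, were among them.

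Of the eIF2alpha kinases and phosphatase subunits, 3 of 6 tested were higher and 2 lower, beside 25.9% and 25.1% of all genes. Eif2ak2, the kinase PKR that responds to double-stranded RNA, was at 0.88 (adjusted p = 7.2e-19) and Eif2ak1 at 0.20 (adjusted p = 3.1e-04). Eif2ak4, the kinase that senses uncharged tRNA, was lower at -0.31 (adjusted p = 1.5e-06). Myc, a transcription factor known to act on translation genes, fell by 0.33 on the log2 scale (adjusted p = 0.0061), whereas its partner Max and the antagonist Mxd1 rose by 0.20 and 0.55 (adjusted p = 0.0018 and 4.7e-07). The E-box CACGTG, bound by Myc and Max, was found in 5 of 17 cytosolic and 1 of 15 mitochondrial windows and in 7.01% of all protein-coding windows. Of the 5 cytosolic genes, Aars1, Tars1, Iars1, Farsb and Vars1, 0 were higher and 3 lower, beside 25.9% and 25.1% of all genes. Of the 12 cytosolic genes tested whose windows lacked the E-box, 4 were higher and 4 lower, and no test between these sets was made. Aars1, Tars1 and Iars1 also held the ATF4-C/EBP letters, so the sets of both elements share genes.

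**Figure D4:**
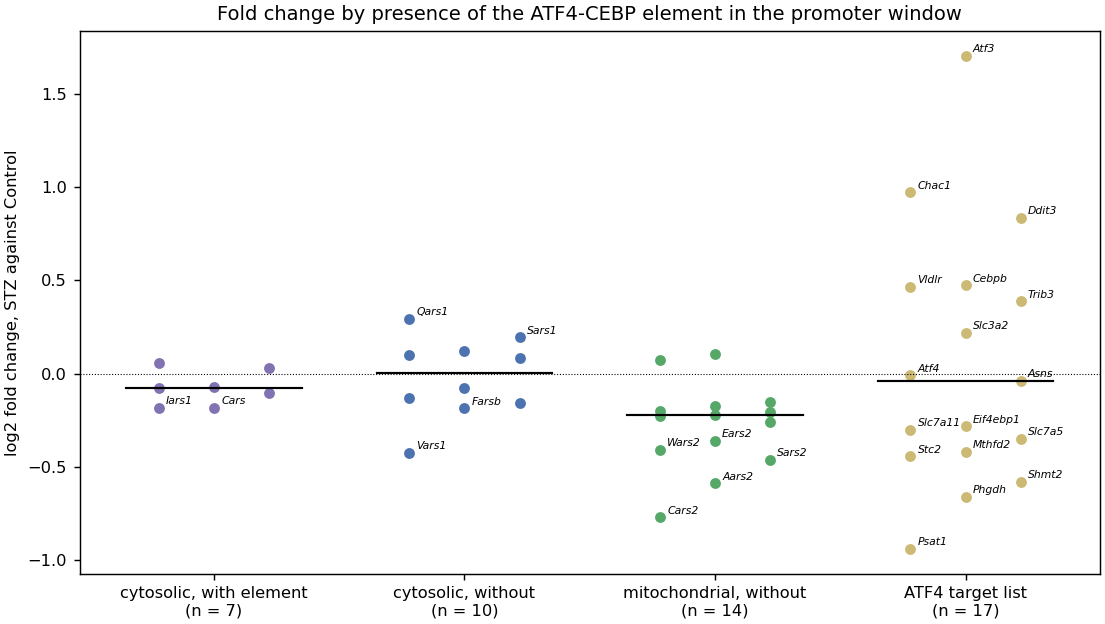
Log2 fold change, STZ against Control, of synthetase genes grouped by compartment and by the ATF4-C/EBP letters in their promoter window, and of the ATF4 target list (points are genes, lines are medians). The 7 cytosolic genes with the letters lie between -0.18 and 0.05, while the ATF4 target list extends from Psat1 at -0.94 to Atf3 at 1.71.

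Letters of the ETS element, CCGGAAG on either strand, were in 9 of 17 cytosolic and 6 of 15 mitochondrial windows (52.9% and 40.0%), beside 10.7% of all protein-coding windows. The cytosolic genes with them included 3 higher and 3 lower, and the mitochondrial genes 0 higher and 3 lower. Of the 8 cytosolic genes tested without them, 1 was higher and 4 lower, and of the 8 mitochondrial ones 0 were higher and 4 lower. Shares over all genes tested were 25.9% higher and 25.1% lower. The element is shown in the 250 bases before the start of both cysteine enzymes, which are the pair holding the largest fall. Capitals mark the ETS letters, and the ATF4-C/EBP letters of Cars lie after its start, as printed above.
Cars (RefSeq Cars1), GRCr8 chr1:208225370-208225619, minus strand: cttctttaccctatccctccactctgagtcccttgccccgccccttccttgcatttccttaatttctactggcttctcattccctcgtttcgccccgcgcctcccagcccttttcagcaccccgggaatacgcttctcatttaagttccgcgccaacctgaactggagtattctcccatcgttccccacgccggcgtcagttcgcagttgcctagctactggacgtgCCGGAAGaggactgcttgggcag
Cars2, GRCr8 chr16:84651857-84652106, plus strand: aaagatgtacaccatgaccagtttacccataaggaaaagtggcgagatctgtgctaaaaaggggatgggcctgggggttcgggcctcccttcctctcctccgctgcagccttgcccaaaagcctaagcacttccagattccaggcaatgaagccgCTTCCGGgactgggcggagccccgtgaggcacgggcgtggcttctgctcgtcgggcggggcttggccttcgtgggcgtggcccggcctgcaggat
Letters of the NRF1 element, GCGCANGC, were in 5 of 17 cytosolic and 5 of 15 mitochondrial windows, beside 11.6% of all protein-coding windows. Of the mitochondrial genes with them, Iars2 and Wars2 were lower and Pars2, Vars2 and Rars2 did not pass the test. Of the 9 mitochondrial genes tested without them, 5 were lower, beside 25.1% of all genes tested.

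Genes that act before and after charging were mostly lower or did not pass. Of 12 genes of tRNA maturation and export tested, 0 were higher and 8 lower, with a median log2 fold change of -0.15. Over all genes tested, 25.9% were higher and 25.1% lower, with a median of -0.01. Wdr4, a subunit of the tRNA methyltransferase complex with Mettl1, Trnt1, which adds the CCA end that synthetases load, and Nsun2, a tRNA methyltransferase, were at -0.51, -0.33 and -0.15 (adjusted p = 2.5e-04, 0.0023 and 0.0048). In mitochondria the elongation factors Tufm and Gfm1 were lower at -0.20 and -0.14 (adjusted p = 4.7e-04 and 0.042), and Mtfmt, which formylates the initiator tRNA, was at -0.18 and did not pass.

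Among the proofreading genes, Aarsd1, which clears serine wrongly attached to alanine tRNA, and Dtd1, which removes D-amino acids from tRNA, were lower at -0.50 and -0.45 (adjusted p = 5.3e-09 and 1.3e-05).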

How the data were processed

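mRNA was sequenced from 3 Control and 3 STZ samples of NRK-52E cells. The authors prepared TruSeq stranded mRNA libraries, aligned them with STAR 2.7.10a to Rnor6, counted uniquely mapped reads with featureCounts and deposited raw counts per gene. No column was left unassigned. TMM scaling, filterByExpr, the quasi-likelihood test (edgeR 4.0.16, R 4.3.3) and Benjamini-Hochberg adjustment were computed here over the whole table. Standard errors come from the F statistic and the log2 fold change. The steps were tested on simulated data.

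The members and lists were chosen with earlier results of these data known. Per-sample values were given for the 8 largest rises and falls past the threshold (6 rises passed), for the 5 most different pairs and for Gars and Kars. In each related list the 3 genes with the smallest p were named, and others are marked or given as counts. Every such count is to be read beside the 25.9% higher and 25.1% lower over all genes tested. Per-sample values of Mars2 and Hars2 were chosen after they were seen. Promoter windows and gene spans are from RefSeq (GRCr8), in which 36 of 36 members matched. The spans of 15 members overlap another gene. Coordinates on the authors' build are not given. Gene lengths of that build were not used here, so levels were not compared between genes. Paralogs may share reads, of which unique mapping keeps a part. No library was a repeat of another (chi-square over degrees of freedom at least 1.85 within groups). Alternatives were other scalings, filters, tests (DESeq2 1.42.0, limma-voom 3.58.1), a threshold of 0.01, a replicate block and each sample left out. A few genes and 1 site are counted in the totals but not reported here.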

Additional observations from a re-analysis of the deposited data

How the results depend on the processing

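The direction of change was kept for all called synthetases under every alternative run. Calls nearest the threshold changed with the scaling and when a sample was left out. With library size only, 3 cytosolic enzymes were higher in place of 6, and the medians were -0.11 (cytosolic) and -0.26 (mitochondrial). The cytosolic median was -0.10 with upper quartile factors. At an adjusted p under 0.01, 3 cytosolic enzymes were higher. With each sample left out in turn, 3 to 5 cytosolic enzymes were higher and 6 to 8 lower, and 6 to 8 mitochondrial enzymes were lower. The cytosolic median log2 fold change was then -0.083 (without Control replicate 1) to -0.048 (without Control replicate 3), the mitochondrial one -0.26 to -0.17, and their difference, 0.15 with all samples, was 0.11 to 0.18. These fits also hold fewer samples, which was not separated from the influence of the sample left out, and causes were not tested. No mitochondrial enzyme was higher and no member passed both thresholds under any alternative run. At an unadjusted p under 0.05 the count of mitochondrial enzymes higher was likewise 0, and DESeq2's Wald test and limma-voom also called 0. Over single enzymes, 507 refits kept the call, 42 lost it and 11 gained it. Same-numbered samples had correlations of deviations of 0.047, -0.042 and 0.071, so the numbering carries no shared deviation. Under the replicate block, the counts were 6 higher and 8 lower (cytosolic) and 7 lower (mitochondrial), and no call changed. Ears2, with 13 to 32 reads per sample, had a standard error of 0.26 on the log2 scale, beside 0.05 for Hars2 with 1118 to 1690 reads.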
